A study of Mus musculus with 4 samples.

Results

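The genes described here encode the T cell receptor (TCR) complex and the proteins that act directly behind it. Of 46 listed members, 42 had a row of their own among the 14860 genes measured, and Lck, Skap1, Cblb and Trat1 had none and were not analysed here. Members were chosen by name and role, but with earlier results of these data known. Each gene is read from its strongest row (by mean over all 4 arrays) among rows annotated to exactly 1 gene. Naive CD4 T cells of C57BL/6 spleens, isolated at a labelled purity of over 90%, were given 150 nM JQ1 or the solvent DMSO. JQ1 competes with acetylated histones for the bromodomains of BET proteins and so releases those proteins from chromatin. Both groups were stimulated with beads carrying antibodies against CD3 and CD28 and received blocking antibodies against IFN-γ and IL-4 together with IL-6, IL-23 and TGF-β1, the mixture that favours TH17 cells. The samples are 2 arrays with JQ1 and 2 with DMSO, all labelled 48 hours, although the treatment text also gives a stimulation of 4 days. The labels do not state if the replicates are separate cultures or animals, so the p-values reflect the spread among these arrays only, and that spread may be technical.

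In T cells the receptor chains that bind antigen have no signalling tail of their own, and the CD3 chains and the zeta chain carry the tyrosine motifs that are phosphorylated once the receptor is engaged. The Src family kinases LCK and FYN phosphorylate those motifs, ZAP70 docks on them and phosphorylates the scaffolds LAT and SLP76, and calcium, Ras and NF-kB signals follow. A set of phosphatases, kinases, ubiquitin ligases and small adaptors holds this cascade back, and many of them act on LCK, ZAP70 or the receptor itself. The beads used here engage that receptor in both groups, so the comparison of JQ1 with DMSO asks how BET inhibition moves the transcripts of the receptor machinery in stimulated cells.

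The identity of the cells was read from marker genes. All 8 measured T cell and CD4 markers lay above 5.80, the 95th percentile of the mean log2 signals of 800 olfactory and vomeronasal receptor genes, which serves as a background level. The linear signals of these T cell markers summed to 8877 and 9497 on the JQ1 arrays and to between 9018 and 10762 on the DMSO arrays. Cd3d, Cd3e, Cd3g, Cd247 and Cd4 are among these markers and are also members, so the sum is not independent of the results for them. Of 8 measured TH17 markers, 7 lay above the background in at least 1 group. All 8 were lower with JQ1 at an unadjusted limma p below 0.05, against 8.26% of all genes. Their summed signal was 1502 to 1740 with JQ1 and 4953 to 5778 with DMSO. Of markers of other cells, 3 of 8 B cell, 1 of 7 myeloid and dendritic, 1 of 4 natural killer, 1 of 2 gamma delta T cell and 0 of 3 erythroid markers lay above the background in at least 1 group. Summed signals of the B cell markers were 261 to 293 with JQ1 and 316 to 321 with DMSO, those of the myeloid and dendritic markers 272 to 282 with JQ1 and 298 on both DMSO arrays, and those of the natural killer markers 97.0 to 105 with JQ1 and 167 to 191 with DMSO. For the gamma delta T cell and erythroid markers the sums of the groups overlapped. Among the B cell, myeloid and natural killer markers, 1 had an unadjusted limma p below 0.05, the natural killer receptor gene Klrd1, and it was lower with JQ1. Its log2 change was -1.73, against -0.09 for Ncr1, -0.09 for Eomes and -0.003 for Klre1, the other measured natural killer markers. The part of such cells in the results was not tested, and in bulk RNA fewer cells of a type and less RNA per cell cannot be told apart.

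With JQ1 the receptor chains and the central kinase Zap70 differed by at most 0.16 log2 units from DMSO in the mean, while the 3 genes with the largest changes were inhibitors of the cascade. These genes, Sla, Sit1 and Ubash3a, were lower by 1.76-fold to 2.78-fold, and the inhibitor Dgka was 1.60-fold higher. Outside the inhibitors, the surface genes Cd8a and Thy1 and the kinase gene Txk were lower, and the kinase gene Fyn was higher. None of the 42 members passed the limma test with p-values adjusted by Benjamini-Hochberg across the 14860 genes (adjusted p from 0.212 to 0.975), where 0.00673% of all genes did. At an unadjusted limma p below 0.05 there were 8 members lower with JQ1, against 8.26% of all genes, and 2 members higher, against 1.72% of all genes. The 8 are 19.0% and the 2 are 4.76% of the 42 members.

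Since 40 of the 42 members had a mean above the receptor background, the share among all genes above it was set beside these counts, a comparison chosen after the data were seen. In that set of 8162 genes 11.0% were lower and 1.48% higher at an unadjusted limma p below 0.05. A fold of at least 1.5 was reached by 6 members lower with JQ1, against 5.16% of all genes and 5.93% of those above the receptor background, and by 2 members higher, against 1.43% and 0.735%. The count of 8 lower members was 2 without JQ1 replicate 1, 6 without JQ1 replicate 2, 5 without DMSO replicate 1 and 3 without DMSO replicate 2, each with a lone array in 1 group that is assumed to vary like the other group. Over all genes 4.64%, 7.88%, 5.54% and 8.37% were lower in these 4 sets, in the same order. The share of members was thus about that of all genes without JQ1 replicate 1 and below it without DMSO replicate 2. The 2 higher members, Fyn and Dgka, were both at an unadjusted limma p below 0.05 in every such set except that Fyn was not without JQ1 replicate 2. Without Cd8a and Cd8b1, which mark CD8 T cells, 7 of 40 members were lower.

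**Figure D1:**
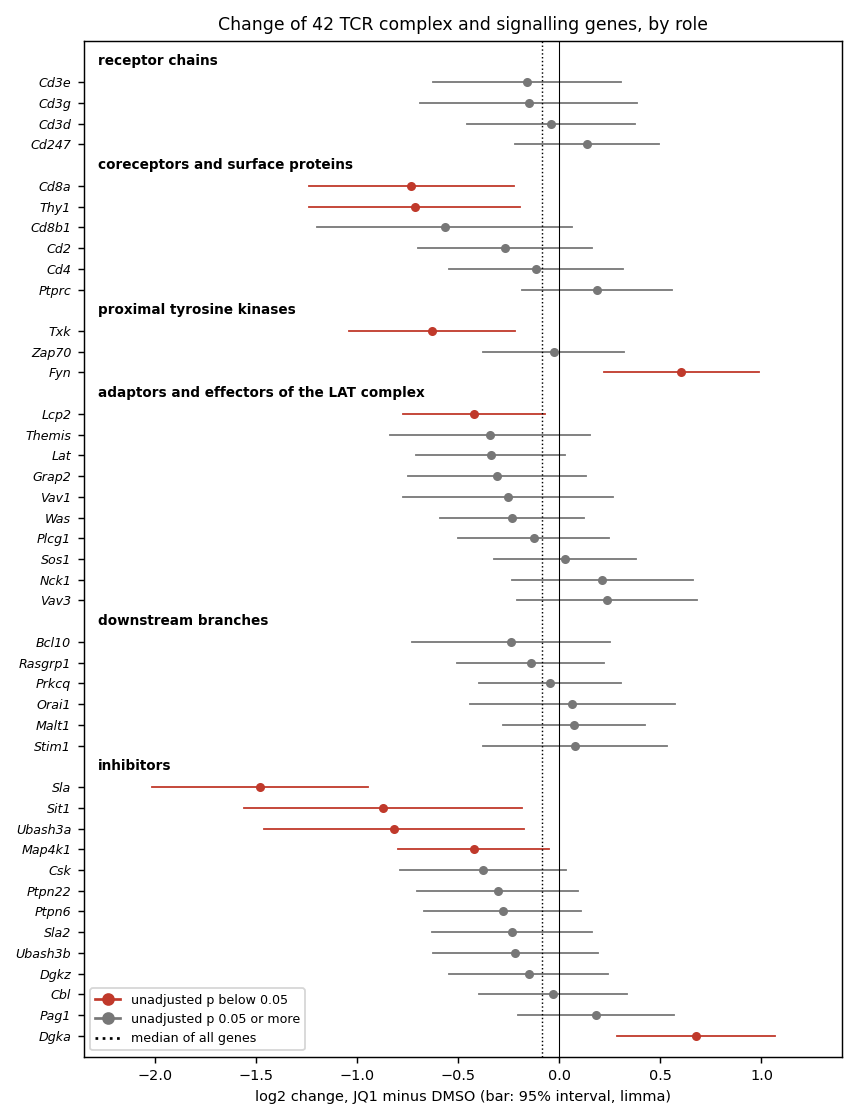
Log2 change (JQ1 minus DMSO, x axis) of each of the 42 measured members, grouped by role, with limma's 95% interval as a bar and the median of all 14860 genes as a dotted line. The receptor chains lie around that line, and Sla (-1.48) and Dgka (0.68) are the extremes, both among the inhibitors.

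The receptor chains come first. Cd3e, which encodes the CD3 epsilon chain, had log2 signals of 10.95 and 11.15 on the JQ1 arrays and 11.38 and 11.04 on the DMSO arrays. Cd3d, for the delta chain, was at 10.93 and 11.01 with JQ1 and at 11.15 and 10.87 with DMSO. Cd3g, for the gamma chain, was at 10.70 and 10.53 with JQ1 and at 11.02 and 10.51 with DMSO. For all 3 genes, which lie next to each other on chromosome 9, DMSO replicate 1 was the highest array, DMSO replicate 2 lay below at least 1 JQ1 array, and the groups overlapped. The log2 change of Cd3e was -0.16 (SE 0.18, 95% interval -0.63 to 0.30). For Cd3d it was -0.04 (SE 0.17, interval -0.45 to 0.37), and for Cd3g -0.15 (SE 0.21, interval -0.69 to 0.39). These intervals leave out a fall by 0.7 log2 units or more, and smaller changes in either direction remain within them. Cd247, which encodes the zeta chain with most of the receptor's tyrosine motifs, was at 7.65 and 7.67 with JQ1 and at 7.48 and 7.57 with DMSO. Both JQ1 arrays were above both DMSO arrays by a small margin (log2 change 0.14, SE 0.14, limma adjusted p = 0.804).

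Among the surface proteins, Thy1 and the CD8 chain genes had the largest changes. Thy1, a lipid-anchored glycoprotein on all mouse T cells, was at 9.70 and 10.03 on the JQ1 arrays and at 10.77 and 10.39 on the DMSO arrays. Both JQ1 arrays were below both DMSO arrays, and the means were 9.87 ± 0.24 with JQ1 and 10.58 ± 0.27 with DMSO (SD, n = 2 each). The log2 change was -0.71 (SE 0.21), a 1.64-fold lower signal (limma unadjusted p = 0.0162, adjusted p = 0.390), and the unadjusted p was 0.05 or more without JQ1 replicate 1 and without DMSO replicate 1. Cd4, the coreceptor of the cells studied, had values of 8.64 and 8.81 with JQ1 and of 8.98 and 8.70 with DMSO. Its groups overlapped, and its log2 change was -0.12 (SE 0.17, 95% interval -0.55 to 0.31).

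Cd8a, the alpha chain of the CD8 coreceptor, was at 5.15 and 5.61 with JQ1 and at 6.04 and 6.18 with DMSO, so its JQ1 mean was below the receptor background of 5.80 and its DMSO mean just above it. The log2 change was -0.73 (SE 0.20, limma unadjusted p = 0.0130, adjusted p = 0.389), and the unadjusted p was 0.05 or more without JQ1 replicate 1 and without DMSO replicate 2. Cd8b1, its partner chain and neighbour on chromosome 6, was at 5.88 and 6.56 with JQ1 and at 6.86 and 6.72 with DMSO. Its groups did not overlap either, and the log2 change was -0.57 (SE 0.25, limma adjusted p = 0.529). It was -0.23 without JQ1 replicate 1 and -0.90 without JQ1 replicate 2. Of the 6 CD8 T cell markers, 3 were above the background in at least 1 group, these 2 genes and the perforin gene Prf1, which was at 5.99 and 5.64 with JQ1 and at 5.98 and 5.88 with DMSO. The sum of the 6 markers, these 2 genes included, was 242 to 271 with JQ1 and 317 to 334 with DMSO. The part of CD8 T cells in these differences was not tested.

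The remaining surface genes differed less. Cd2, an adhesion receptor that helps T cells engage their partners, was at 11.52 and 11.44 with JQ1 and at 11.91 and 11.59 with DMSO. Ptprc, the phosphatase CD45 that keeps LCK ready to act, was at 11.13 and 11.28 with JQ1 and at 11.06 and 10.97 with DMSO. Cd2 was lower and Ptprc higher on both JQ1 arrays, with log2 changes of -0.27 (SE 0.17) and 0.19 (SE 0.15), and neither had an unadjusted limma p below 0.05.

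The measured tyrosine kinase genes differed in direction. Fyn, a Src family kinase that phosphorylates the CD3 and zeta motifs, was at 9.93 and 10.06 on the JQ1 arrays and at 9.47 and 9.31 on the DMSO arrays. The groups were separate, with means of 9.99 ± 0.093 with JQ1 and 9.39 ± 0.12 with DMSO (SD, n = 2 each) and a log2 change of 0.60 (SE 0.15, limma unadjusted p = 0.00928, adjusted p = 0.362). Txk, a kinase of the Tec family that activates phospholipase C gamma, was at 7.79 and 7.59 with JQ1 and at 8.22 and 8.42 with DMSO. Its groups were separate in the opposite direction, with a log2 change of -0.63 (SE 0.16, limma unadjusted p = 0.0105, adjusted p = 0.368), and its unadjusted p was 0.05 or more without JQ1 replicate 2 and without DMSO replicate 2. Zap70, the kinase that docks on the phosphorylated receptor, was at 8.07 and 8.08 with JQ1 and at 8.09 and 8.11 with DMSO. The 4 values lie within 0.05 log2 units of each other, and the change was -0.03 (SE 0.14, 95% interval -0.38 to 0.32).

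**Figure D2:**
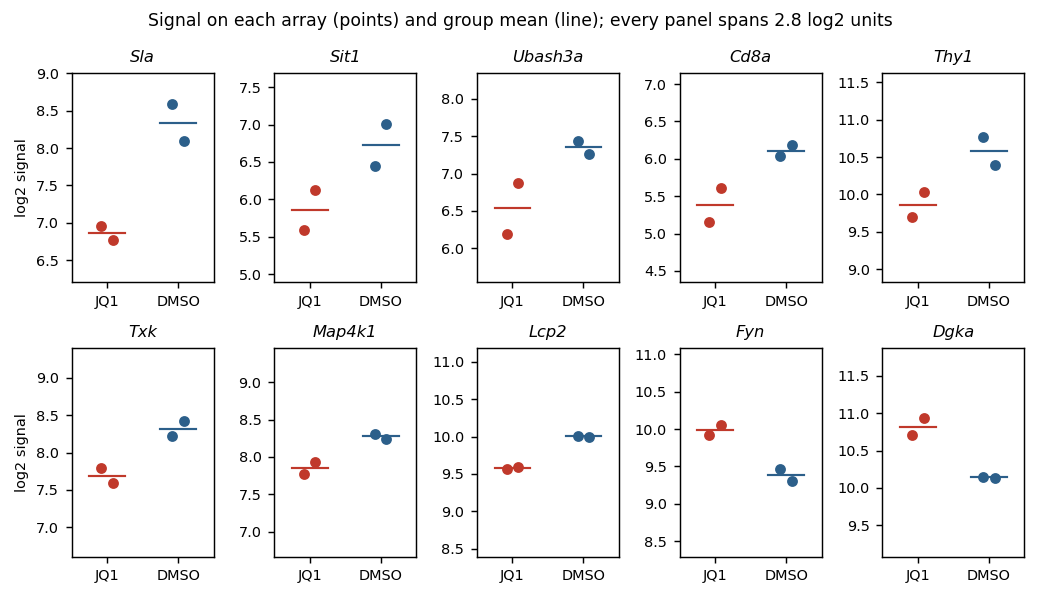
Log2 signal (y axis) on each JQ1 and DMSO array (points) and group means (lines) for the 10 members with an unadjusted limma p below 0.05. The arrays of the groups do not overlap in any panel, with Fyn and Dgka higher and the other 8 lower with JQ1.

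Of the 10 measured adaptors and effectors that gather on LAT, 6 had both JQ1 arrays below both DMSO arrays and 2 had both above. Over all genes 31.4% were lower on both JQ1 arrays and 10.0% higher, and brighter genes were lower more often, with 48.1% of the genes with a mean log2 signal over 8 and up to 10 and 55.9% of those over 10. Lcp2, which encodes the scaffold SLP76, was at 9.57 and 9.59 with JQ1 and at 10.01 and 9.99 with DMSO. The replicates of each group lay within 0.02 log2 units of each other, and the log2 change was -0.42 (SE 0.14, limma unadjusted p = 0.0264, adjusted p = 0.431). Lat, the membrane scaffold that ZAP70 phosphorylates, was at 11.03 and 11.11 with JQ1 and at 11.47 and 11.34 with DMSO, a log2 change of -0.34 (SE 0.15, limma adjusted p = 0.525). Grap2, the adaptor GADS that joins LAT to SLP76, was at 9.01 and 9.20 with JQ1 and at 9.56 and 9.27 with DMSO (log2 change -0.31, SE 0.17). Under the further scalings the changes shrank to between -0.30 and -0.19 for Lcp2, -0.22 and -0.13 for Lat and -0.19 and -0.09 for Grap2. Lcp2 was the member of these 3 with an unadjusted limma p below 0.05, and it was not below 0.05 once any 1 array was left out.

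The other members of this group were Themis (-0.34), which tunes receptor signals during thymic selection, the Rac exchange factor Vav1 (-0.25), the actin regulator Was (-0.23) and the phospholipase Plcg1 (-0.13). On the positive side were the Ras exchange factor Sos1 (0.03), the adaptor Nck1 (0.21) and Vav3 (0.24). Vav3 was below the receptor background in both groups, with 4.97 and 4.61 on the JQ1 arrays and 4.54 and 4.57 on the DMSO arrays, and was the 1 member of which this held in both. Unadjusted limma p-values of these 7 genes were 0.138 or higher.

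The genes of the downstream branches had log2 changes between -0.24 and 0.08. Bcl10 and Malt1, which form the complex that turns on NF-kB, were at -0.24 (SE 0.19) and 0.07 (SE 0.14). Prkcq, the protein kinase C theta that activates this complex, had 8.58 and 8.59 with JQ1 and 8.61 and 8.64 with DMSO, a change of -0.04. Rasgrp1, the diacylglycerol-gated activator of Ras, was at -0.14 (SE 0.15). Stim1 and Orai1, sensor and channel of the store-operated calcium current, were at 0.08 (SE 0.18) and 0.07 (SE 0.20). None of the 6 had an unadjusted limma p below 0.05, and their 95% intervals reached from -0.73 for Bcl10 to 0.57 for Orai1.

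Inhibitors held 5 of the 10 members with an unadjusted limma p below 0.05. Of 13 measured, 4 were lower and 1 higher at that level, 9 were lower on both JQ1 arrays and 2 were higher. The shares over all genes were 8.26% lower and 1.72% higher at that level, and 31.4% lower and 10.0% higher on both arrays. Among genes above the receptor background they were 11.0%, 1.48%, 38.1% and 9.56%. The median change of the inhibitors was -0.28, against -0.14 for the other 29 members, -0.09 for all genes and -0.12 for genes above the receptor background. Sla encodes the Src-like adaptor SLAP, which works with the ubiquitin ligase CBL to take the zeta chain and the receptor off the surface. The Sla signal was 6.96 and 6.77 on the JQ1 arrays and 8.59 and 8.09 on the DMSO arrays. The gap between the groups was wider than the spread within either, with means of 6.86 ± 0.14 with JQ1 and 8.34 ± 0.35 with DMSO (SD, n = 2 each). The log2 change of -1.48 (SE 0.21, 95% interval -2.01 to -0.94) is a 2.78-fold lower signal (limma unadjusted p = 0.000674, adjusted p = 0.212) and ranked 42 of 14860 genes by p. Its adjusted limma p ranged from 0.0349 to 0.609 over the alternatives tried. Among the 8162 genes above the receptor background, fitted alone, Sla passed the test (limma adjusted p = 0.0436), and among the genes above the median signal it passed too (limma adjusted p = 0.0349). It was the only member that passed in either fit, where 31 of the 8162 genes and 50 of the 7430 genes above the median signal passed.

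Sit1 encodes a transmembrane adaptor that dampens receptor signals. It was at 5.58 and 6.12 with JQ1 and at 6.44 and 7.01 with DMSO. The groups were separate but each spread over more than 0.5 log2 units, and the log2 change was -0.87 (SE 0.27, limma unadjusted p = 0.0216, adjusted p = 0.413). Ubash3a, a phosphatase family member that restrains ZAP70 signalling, was at 6.19 and 6.88 with JQ1 and at 7.44 and 7.27 with DMSO. JQ1 replicate 1 was the lowest array for Sit1 and for Ubash3a, and the change of Ubash3a was -0.82 (SE 0.26, limma unadjusted p = 0.0214, adjusted p = 0.413). Without JQ1 replicate 1 the unadjusted p was 0.05 or more for both genes, and so it was for Sit1 without DMSO replicate 2 and for Ubash3a without DMSO replicate 1. Map4k1, the kinase HPK1 that marks SLP76 for removal, was at 7.77 and 7.94 with JQ1 and at 8.31 and 8.24 with DMSO. Its change was -0.42 (SE 0.15, limma unadjusted p = 0.0332, adjusted p = 0.451), and its unadjusted p was 0.05 or more with any 1 array left out.

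Dgka, the alpha form of the diacylglycerol kinases that remove the lipid signal behind Ras and protein kinase C theta, lay the other way. It was at 10.70 and 10.93 with JQ1 and at 10.15 and 10.13 with DMSO, and both JQ1 arrays lay clearly above both DMSO arrays. The means were 10.82 ± 0.16 with JQ1 and 10.14 ± 0.011 with DMSO (SD, n = 2 each), a log2 change of 0.68 (SE 0.16, 95% interval 0.29 to 1.07, limma unadjusted p = 0.00606, adjusted p = 0.332). Dgka and Sla were the 2 members whose unadjusted p stayed below 0.05 with each array left out in turn and after each of 3 further scalings.

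The other inhibitor genes lay between -0.38 and 0.18, and none had an unadjusted limma p below 0.05. Csk, the kinase that shuts LCK off, was at 7.54 and 7.72 with JQ1 and at 8.11 and 7.90 with DMSO, a change of -0.38 (SE 0.16). Pag1, the membrane protein that anchors CSK, was at 0.18 (SE 0.15), with a DMSO mean of 5.79, just under the receptor background. The phosphatase genes Ptpn22 and Ptpn6, which act on LCK and ZAP70, were at -0.30 (SE 0.16) and -0.28 (SE 0.15), each lower on both JQ1 arrays. Sla2 (-0.23), Ubash3b (-0.22), Dgkz (-0.15) and the ubiquitin ligase gene Cbl (-0.03) complete the group.

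**Figure D3:**
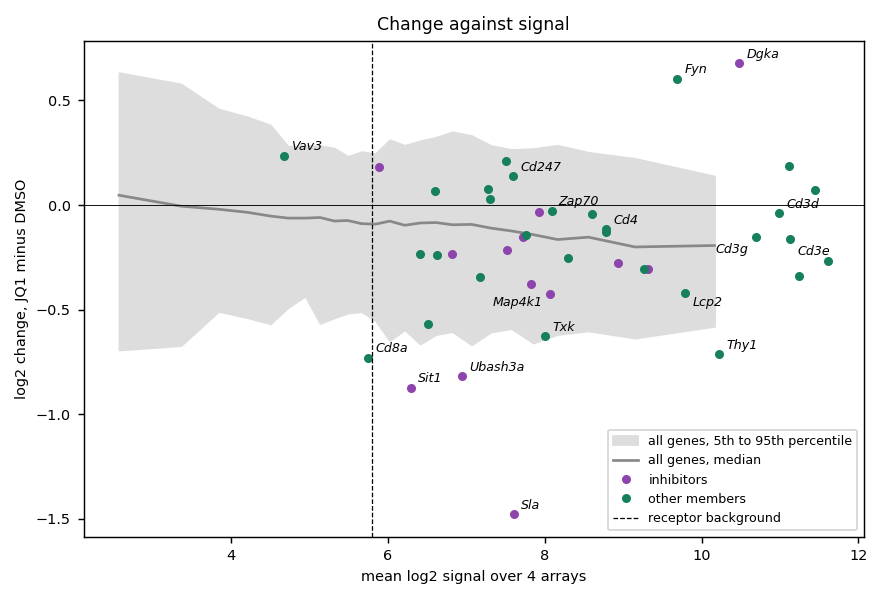
Log2 change (JQ1 minus DMSO) of members against their mean log2 signal over the 4 arrays, with inhibitors in purple and other members in green, over the 5th to 95th percentile band and the median of all genes. Sla, Sit1, Ubash3a and Cd8a lie below the band and Fyn above it. Right of the band's end, Thy1 (-0.71) and Dgka (0.68) stand apart from the CD3 genes, which lie between -0.16 and -0.04.

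Related members were also set side by side on each array, a comparison chosen after their values were seen. The difference of the log2 signals of 2 genes on 1 array does not depend on a shift of the whole array, and only its shift between the groups is read, since signals of different genes are not comparable as levels. For Sla minus Sla2, a pair of Src-like adaptors, the difference was 0.14 and 0.19 on the JQ1 arrays and 1.67 and 1.15 on the DMSO arrays, a shift of -1.24. For Dgka minus Dgkz it was 3.10 and 3.24 with JQ1 and 2.45 and 2.22 with DMSO, a shift of 0.83. In both pairs the groups did not overlap. For Fyn minus Txk it was 2.13 and 2.47 with JQ1 and 1.25 and 0.89 with DMSO, a shift of 1.23. Fyn was higher and Txk lower on both JQ1 arrays, so the groups of this pair could not overlap. The pair therefore adds nothing to the results of the single genes.

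For Ubash3a minus Ubash3b the shift was -0.60, with -1.35 and -0.39 on the JQ1 arrays and -0.20 and -0.33 on the DMSO arrays, and the groups were separated by only 0.06 log2 units. For Vav1 minus Vav3 and Cd8a minus Cd8b1 the groups overlapped, and no shift is read, since Vav3 was below the receptor background in both groups and Cd8a in the JQ1 group. With 2 arrays in each group, the smallest p that an exact two-sided permutation test can give is 0.333, the value reached by each of the 4 pairs whose groups were separate.

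**Figure D4:**
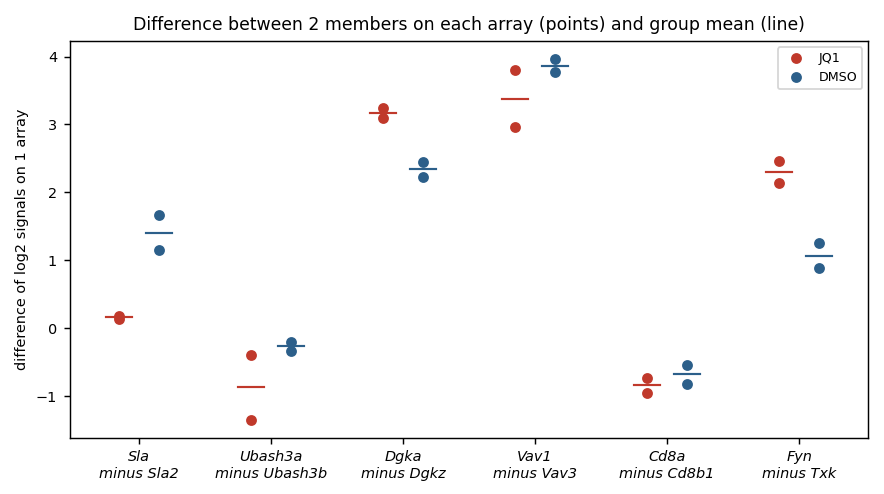
Difference of the log2 signals of 2 related members on each array (points) with group means (lines), JQ1 left of DMSO in each pair. The groups are far apart for Sla minus Sla2, Dgka minus Dgkz and Fyn minus Txk, narrowly apart for Ubash3a minus Ubash3b, and overlap for the other 2 pairs.

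Changes were small enough in many members for their sign to depend on how the arrays were scaled. The median change of all genes was -0.09 in the deposited values, 0.02 after a further quantile normalization, 0.03 after centring each array on its median and 0.0035 after cyclic loess. Relative to the median of all genes in the deposited values, Sla was at -1.39, Thy1 at -0.63, Lcp2 at -0.34, Cd3e at -0.07, Fyn at 0.69 and Dgka at 0.76. In all, 10 members changed sign under at least 1 of the 3 scalings, namely Cd3d, Cd3e, Cd3g, Cd4, Zap70, Plcg1, Rasgrp1, Prkcq, Cbl and Dgkz, and the largest of their deposited changes was -0.16. Of the 10 members at an unadjusted limma p below 0.05, 7 stayed there after all 3 scalings, and Lcp2, Map4k1 and Txk did not.

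The count of members lower on both JQ1 arrays moved with the scaling too. It was 23 of 42 in the deposited values, against 31.4% of all genes and 38.1% of those above the receptor background. It was 12 after quantile normalization, 14 after centring and 13 after cyclic loess, against 18.6%, 17.2% and 19.8% of all genes. Members higher on both JQ1 arrays numbered 8 in the deposited values, against 10.0% of all genes and 9.56% of those above the receptor background, and 15, 11 and 15 after these scalings, against 21.9%, 22.8% and 20.4%. Ptprc was at an unadjusted limma p below 0.05 as higher after quantile normalization and after cyclic loess, with changes of 0.36 and 0.40. The median change of the members was -0.19 in the deposited values, and -0.03, -0.07 and -0.03 after the 3 scalings.

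**Figure D5:**
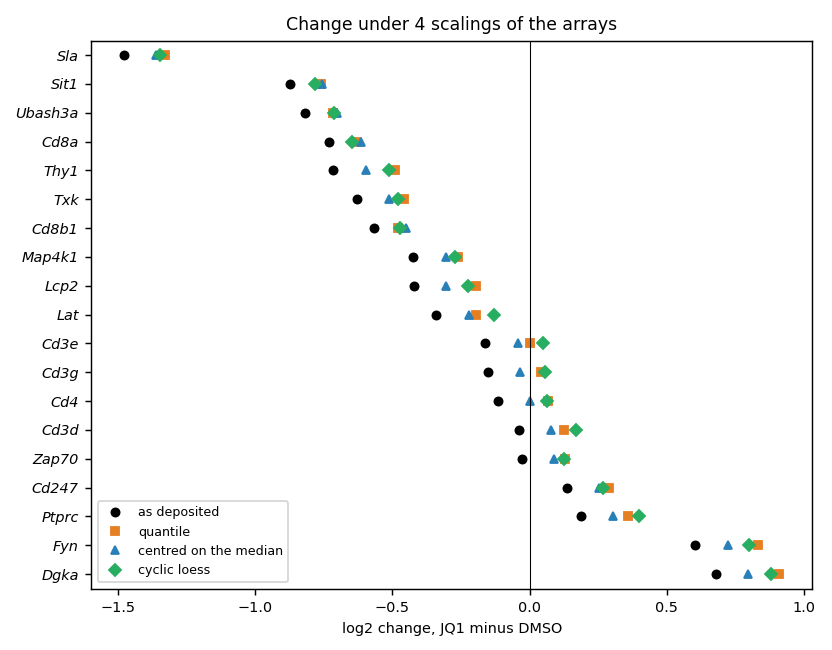
Log2 change (JQ1 minus DMSO) of 19 members in the deposited values (circles) and after quantile normalization (squares), centring on the median (triangles) and cyclic loess (diamonds). Each scaling moves the genes to the right of their deposited value, so that Cd3d, Cd3e, Cd3g, Cd4 and Zap70 cross 0 under at least 1 scaling while Sla, Sit1, Ubash3a, Fyn and Dgka keep their side.

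The rest of the pathway was read from a list of 80 further genes, of which 60 had a row. At an unadjusted limma p below 0.05 there were 8 lower and 2 higher with JQ1, none passed over all genes, and the median change was -0.16. The median was -0.11 without JQ1 replicate 1, -0.15 without JQ1 replicate 2, -0.13 without DMSO replicate 1 and -0.12 without DMSO replicate 2. Counts of these genes at an unadjusted p are not given for these sets, each of which leaves a lone array in 1 group. The count of 8 lower genes was 4 after quantile normalization, 3 after centring and 4 after cyclic loess, against 5.09%, 4.57% and 5.42% of all genes. The count of 2 higher genes was 3 after each of these scalings, against 4.10%, 3.85% and 3.67% of all genes. Lax1, an adaptor of lymphocyte membranes that limits receptor signalling, was at 6.30 and 6.22 with JQ1 and at 6.83 and 6.98 with DMSO, a change of -0.65 (SE 0.15, limma adjusted p = 0.334). Nras, a Ras GTPase, was at -0.63 (SE 0.16), the adaptor gene Skap2 at -0.63 (SE 0.16) and Tec, the founding kinase of the family of TXK, at -0.67 (SE 0.23). On the higher side were Prkca, a conventional protein kinase C, at 0.58 (SE 0.16) and Pik3cd, the leukocyte catalytic subunit of PI3 kinase, at 0.43 (SE 0.15). Next by unadjusted p among the genes on the higher side were Itpr2 (0.32), a calcium release channel, and Dgke (0.20), the epsilon form of the diacylglycerol kinases, neither with a p below 0.05. The counts of 8 and 2 are 13.3% lower and 3.33% higher of the 60 genes, 10 of which were below the receptor background in both groups, against 8.26% and 1.72% of all genes and 11.0% and 1.48% of the genes above that background.

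Upstream sequences are shown for members with an unadjusted limma p below 0.05 and a fold of at least 1.5. Of these, those with exactly 1 start listed in the RefSeq promoter table (build GRCm38.p6) are included. The starts used in these cells were not measured. Each run gives the 250 bases before the start, 5′ to 3′ on the gene's strand. Capitals mark matches on either strand to the E-box letters CAGGTG or CAGCTG or the ETS core CAGGAA, and the RUNX core TGTGGT was searched as well. The windows lie at chr10:39369549-39369798, plus strand for Fyn, which was higher with JQ1, and at chr6:71373177-71373426, plus strand for Cd8a, chr4:43483710-43483959, minus strand for Sit1 and chr17:31207816-31208065, plus strand for Ubash3a, which were lower.
Fyn: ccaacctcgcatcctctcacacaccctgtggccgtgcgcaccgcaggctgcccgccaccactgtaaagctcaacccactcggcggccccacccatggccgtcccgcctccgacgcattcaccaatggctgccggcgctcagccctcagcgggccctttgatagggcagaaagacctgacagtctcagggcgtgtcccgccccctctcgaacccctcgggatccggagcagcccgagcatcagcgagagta
Cd8a: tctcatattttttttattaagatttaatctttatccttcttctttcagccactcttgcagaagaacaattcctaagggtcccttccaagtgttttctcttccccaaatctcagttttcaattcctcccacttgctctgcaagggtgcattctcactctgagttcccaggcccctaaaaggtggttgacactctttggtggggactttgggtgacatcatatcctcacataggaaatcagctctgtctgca
Sit1: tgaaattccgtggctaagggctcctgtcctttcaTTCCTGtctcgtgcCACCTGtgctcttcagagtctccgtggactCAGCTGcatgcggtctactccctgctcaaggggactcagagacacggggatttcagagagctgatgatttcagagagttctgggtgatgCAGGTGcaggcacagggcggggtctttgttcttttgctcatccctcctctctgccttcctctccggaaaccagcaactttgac
Ubash3a: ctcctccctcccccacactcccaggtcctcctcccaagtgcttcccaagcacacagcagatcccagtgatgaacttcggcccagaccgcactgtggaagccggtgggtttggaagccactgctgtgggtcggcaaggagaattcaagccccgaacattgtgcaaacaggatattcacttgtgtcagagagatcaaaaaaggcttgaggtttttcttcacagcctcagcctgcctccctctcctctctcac

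The Sit1 window held 3 E-box matches and 1 ETS core match, and the other 3 windows held none of the searched letters. The Fyn window was the richest in G and C, with 67.2%, against 42.8% for Cd8a, 54.8% for Sit1 and 55.6% for Ubash3a. Of the measured members 35 had a promoter in the table, with 51 windows between them. An E-box was found in 33.3% of these windows and 27.7% of all 32851 windows, the ETS core in 35.3% and 25.7%, and the RUNX core in 11.8% and 14.0%. A match of letters is not a bound site, and no test was made of these shares.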

How the data were processed

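RNA of 4 samples, 2 with JQ1 and 2 with DMSO, was measured on Affymetrix exon arrays. The deposited log2 values were made by the authors with RMA in Affymetrix Expression Console, per the submitters' processing notes, which corrects background, quantile-normalizes and summarises probes. Software versions and the definition of a row were not given in the sources used, and the notes name hg19, a human build, for mouse samples, so no coordinates come from the arrays. Of 23332 rows, 14996 had exactly 1 gene in the platform annotation, 1019 several and 7317 none. Symbols of 14941 rows were matched through Entrez identifiers to a RefSeq table of GRCm38.p6, and updated where they differed.

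All 14860 genes were fitted with limma 3.58.1 in R 4.3.3 (lmFit, eBayes, two-sided; residual degrees of freedom 2, prior 3.43), adjusting by Benjamini-Hochberg at a threshold of 0.05, without a filter. A change is JQ1 minus DMSO. The code was tested on simulated data. The number of arrays limits the precision. Figures used matplotlib 3.10.9. Array values are given for members with an unadjusted p below 0.05, with a fold of at least 1.5, or fixed by name, and further ones for illustration were chosen after their values were seen. Members, lists and tests were chosen with earlier results of these data known. Alternatives were other variance models, scalings, filters, row rules, the replicate number as a block, and each array left out. Protein sequences were not used here.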

Additional observations from a re-analysis of the deposited data

How the results depend on the processing

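No member passed over all genes in the deposited values, at an adjusted p below 0.1, or under most alternatives. The count was 1, Sla, among genes above the median signal and among those above the receptor background, where fewer genes are tested and the prior spread is estimated anew (39 and 40 members tested). In these fits 50 of 7430 and 31 of 8162 genes passed, against 1 of 14860 without a filter. Of 250 values of 18 named members under alternatives, 230 kept their sign and side of the threshold, 2 were Sla passing, and 18 changed sign.

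Lower members at an unadjusted limma p below 0.05 numbered 8, against 8.26% of all genes. They numbered 5 after quantile normalization, 6 after centring and 6 after cyclic loess, against 5.09%, 4.57% and 5.42% of all genes. With 1 array left out the median change of the members lay between -0.23 and -0.10, and the cause was not tested. Lower on both arrays were 12 members after quantile normalization, 14 after centring and 13 after cyclic loess, and higher on both were 15, 11 and 15. With 1 array left out the counts were 23 to 30 lower, against 43.3% to 54.0% of all genes, and 8 to 12 higher, against 20.7% to 26.4%, since a lone array is easier to separate from the other group. The median change of members was -0.0323, -0.0715 and -0.0346 after these scalings. The other pathway genes had 4, 3 and 4 lower genes at an unadjusted p, with medians of 0.0051, -0.0430 and -0.0154, and 2 to 6 lower and 0 to 2 higher with 1 array left out.

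Signs that changed were those of Cd3d (0.126 after quantile normalization, 0.0776 after centring, 0.17 after cyclic loess), Cd3e (0.0015 after quantile normalization, 0.0492 after cyclic loess), Cd3g (0.0408 and 0.0551), Cd4 (0.0687, 0.0014 and 0.0620) and Zap70 (0.130, 0.0899 and 0.125). With 1 array left out Cd3d ranged from -0.18 to 0.10, Cd3e from -0.33 to 0.0105, Cd3g from -0.40 to 0.10 and Cd4 from -0.26 to 0.0245.

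Same-numbered replicates carry no stated pairing, and their deviations correlated at 0.097 over 14860 genes. With the replicate number as a block 7 members were lower and 2 higher at an unadjusted limma p below 0.05, against 8.32% and 2.03% of all genes. Of the 10 members at that level without the block, 9 were kept, and none passed over all genes.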
